A study of Homo sapiens with 4 samples.

Results

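Nuclear transfer RNA genes were followed in RNA from nuclear and cytoplasmic fractions of HEK293T, an established line derived from human embryonic kidney and expressing SV40 large T antigen. The genes were those that the deposited table marks as tRNA, outside the mitochondrial genome, with a mean normalized count above 0 over the libraries. They were 219 of the 32478 genes with a mean above 0. A further 80 nuclear tRNA genes were listed with a mean of 0. The rule used the mean over both fractions and not the difference between them. There were 2 nuclear and 2 cytoplasmic libraries, biological replicates by their labels, all from wildtype cells that had been crosslinked with formaldehyde before they were fractionated. The library input was 400 ng of RNA, ribodepleted with a stranded kit, and 100 nucleotides were read from either end. The values are therefore shares of the RNA of a fraction, so that more tRNA in a fraction and less of its other RNA cannot be told apart. Library totals on genes were between 21388299 and 24523393 counts, and were partly estimated. Recovered counts made up 58.0% and 57.3% of the nuclear totals and 36.9% and 37.7% of the cytoplasmic totals. The rest came from the deposited mean and fold change, taken as equal in both libraries of a fraction. The table gives no replicate number, so the libraries are called nuclear library A and B and cytoplasmic library A and B.

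Transfer RNAs carry amino acids to the ribosome and read the codons of an mRNA with the 3 bases of their anticodon. Their genes are transcribed by RNA polymerase III from promoter elements inside the gene, the A box and the B box. The precursor loses its leader and trailer in the nucleus, gains the CCA end, is modified at many bases and, in a minority of genes, loses an intron that follows the anticodon. The mature tRNA is exported and works in the cytoplasm. Many human tRNA genes exist in several copies, and a symbol such as TRK-CTT2-2 gives the amino acid in its 1-letter code, the anticodon, a number for the mature sequence and a number for the gene copy.

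The following sequences are those of tRNA genes with high counts, of the best-measured genes long enough to hold an intron, and of the genes with the smallest differences between the fractions. They were read from hg38 at the RefSeq positions of the genes, on the strand of the gene, and the anticodon is in capitals. The first 3 had no intron.
TRL-TAA4-1, chr6:27230555-27230637, minus strand: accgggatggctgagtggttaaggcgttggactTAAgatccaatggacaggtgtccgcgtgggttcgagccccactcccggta
TRK-CTT2-2, chr5:181207755-181207827, plus strand: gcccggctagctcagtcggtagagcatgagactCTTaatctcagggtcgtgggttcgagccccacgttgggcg
TRG-GCC1-5, chr21:17454789-17454859, minus strand: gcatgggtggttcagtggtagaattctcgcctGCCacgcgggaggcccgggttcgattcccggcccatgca
TRY-GTA5-5, chr14:20683273-20683361, plus strand: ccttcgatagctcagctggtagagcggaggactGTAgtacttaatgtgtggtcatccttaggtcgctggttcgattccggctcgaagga
TRI-TAT2-3, chr6:27631421-27631514, plus strand: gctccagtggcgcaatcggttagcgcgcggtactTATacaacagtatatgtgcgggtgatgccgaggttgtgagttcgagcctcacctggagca
TRY-GTA3-1, chr6:26577104-26577192, plus strand: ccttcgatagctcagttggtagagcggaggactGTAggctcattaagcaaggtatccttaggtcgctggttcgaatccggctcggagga
TRL-CAG2-1, chr16:57299951-57300033, plus strand: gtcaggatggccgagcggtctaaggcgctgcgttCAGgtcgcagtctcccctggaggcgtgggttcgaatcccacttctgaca
TRC-GCA14-1, chr17:38861684-38861755, minus strand: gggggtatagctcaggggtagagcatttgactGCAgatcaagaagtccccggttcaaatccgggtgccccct

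Counts of the 219 tRNA genes were low in every library and higher in the cytoplasmic fraction. The nuclear libraries A and B held 393 and 401 counts on these genes, and the cytoplasmic libraries A and B held 2469 and 2967. As CPM, the counts scaled to the library total, this was 16.0 and 18.8 in the nuclear libraries and 101 and 136 in the cytoplasmic libraries. Divided by the size factors, which bring the libraries to a common scale, the sums averaged 315 ± 31.2 for the nuclear and 3413 ± 733 for the cytoplasmic libraries (mean ± SD, n = 2 each). The cytoplasmic mean was 10.8 times the nuclear mean on this scale, and 6.83 times when each library was scaled to its total. Both cytoplasmic libraries were above both nuclear libraries, and the difference exceeded the spread within either fraction. An exact two-sided permutation test gave p = 0.33, the smallest value that 4 libraries allow. Cytoplasmic library B was above cytoplasmic library A, in the sum and in 50 of the 60 genes tested below. Without the 4 highest genes the ratio was 8.31.

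The highest counts belonged to a leucine tRNA gene. TRL-TAA4-1, which reads the leucine codon UUA, had 36 and 51 counts in the nuclear libraries and 391 and 499 in the cytoplasmic libraries. TRK-CTT2-2, a lysine tRNA gene, had 16 and 9 nuclear and 126 and 184 cytoplasmic counts. TRG-GCC1-5, a glycine tRNA gene, had 14 and 17 nuclear and 123 and 181 cytoplasmic counts. In none of these 3 genes did the fractions overlap, also after division by the size factors. Most genes did not: of all genes tested below, 42.2% had both cytoplasmic libraries on top and 47.7% both nuclear ones.

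**Figure D1:**
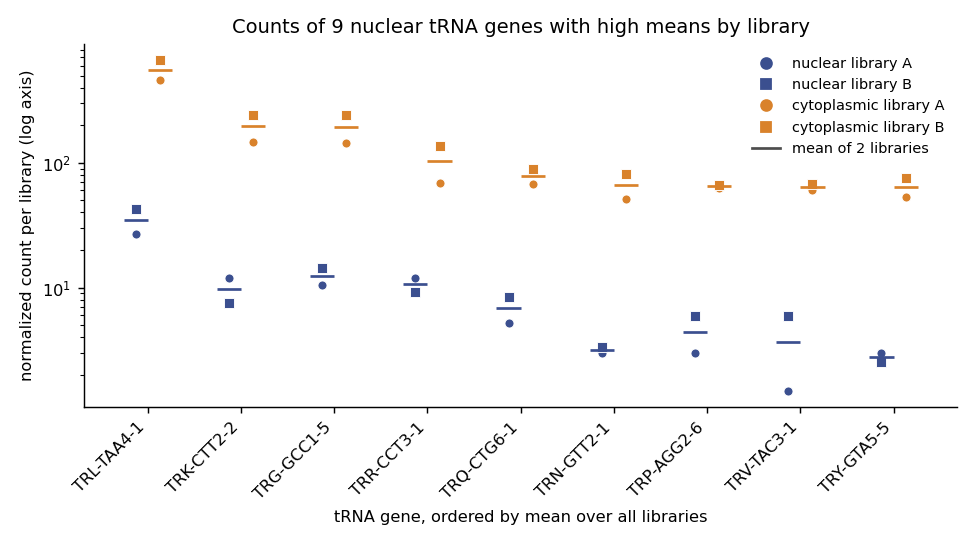
Normalized count per library (log axis) of 9 tRNA genes among the 10 with the highest mean. Each point is 1 library and each bar the mean of the 2 libraries of a fraction. For TRL-TAA4-1 the nuclear libraries sat at 26.8 and 42.9 and the cytoplasmic libraries at 458 and 661. In all 9 genes both cytoplasmic libraries lay above both nuclear ones, as in 42.2% of all genes tested.

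Other genes of the top 10 were less abundant but ordered the fractions in the same way. TRR-CCT3-1 (arginine) had 16 and 11 nuclear and 59 and 103 cytoplasmic counts. TRQ-CTG6-1 (glutamine) had 7 and 10 nuclear and 58 and 67 cytoplasmic counts, and TRN-GTT2-1 (asparagine) had 4 in both nuclear libraries and 44 and 61 in the cytoplasmic ones. The plot of high genes by library shows how far the fractions lay apart. TRP-AGG2-6 (proline) had 4 and 7 nuclear and 54 and 50 cytoplasmic counts. TRV-TAC3-1 (valine) had 2 and 7 nuclear and 52 and 51 cytoplasmic counts, and TRY-GTA5-5 (tyrosine) had 4 and 3 nuclear and 45 and 57 cytoplasmic counts. Counts were not divided by gene length, which was 71 to 94 bases in the tested genes with a RefSeq position. The order among genes is an order of counts.

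To ask which single genes differed between the fractions, log2(normalized count + 0.5) was compared with limma over every gene with a mean normalized count of at least 5. This left 60 of the 219 tRNA genes among 18156 genes tested, and 159 below the minimum. At an adjusted p of at most 0.01, 55 of the 60 were higher in the cytoplasmic fraction, where 32.0% of all genes tested were called in that direction. In the nuclear direction 0 of the 60 were called, at an unadjusted p under 0.05 also 0, against 36.8% of all genes tested. The median log2 difference, cytoplasmic minus nuclear, was 3.33 over the 60 genes and -0.13 over all genes tested. The quartiles of the 60 differences were 2.71 and 3.89. All 60 differences were positive, from 1.15 to 5.34, with standard errors from 0.25 to 1.01. In 60 of 60 genes both cytoplasmic libraries lay above both nuclear ones, where 42.2% of all genes tested did so and 47.7% had both nuclear libraries on top. The typical distance between the libraries of a fraction was 0.70 on the log2 scale in the nucleus and 0.46 in the cytoplasm (medians over the 60 genes).

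Most of these genes reached the minimum through the fraction where they were high, since 50 of the 60 had a nuclear mean under 5. Those 50 had to be higher in the cytoplasmic fraction to be tested, so the counts above do not describe the 219 genes. Of the 10 genes with a nuclear mean of at least 5, a subset chosen after the data were seen, 9 were called cytoplasmic, against 31.5% of all genes with such a nuclear mean. Their median log2 difference was 3.30. Without nuclear library A 25 of the 60 genes were called, without nuclear library B 29, and with the Bonferroni adjustment 4. With each library scaled to its total, the median log2 difference was 2.78 and 41 were called.

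**Figure D2:**
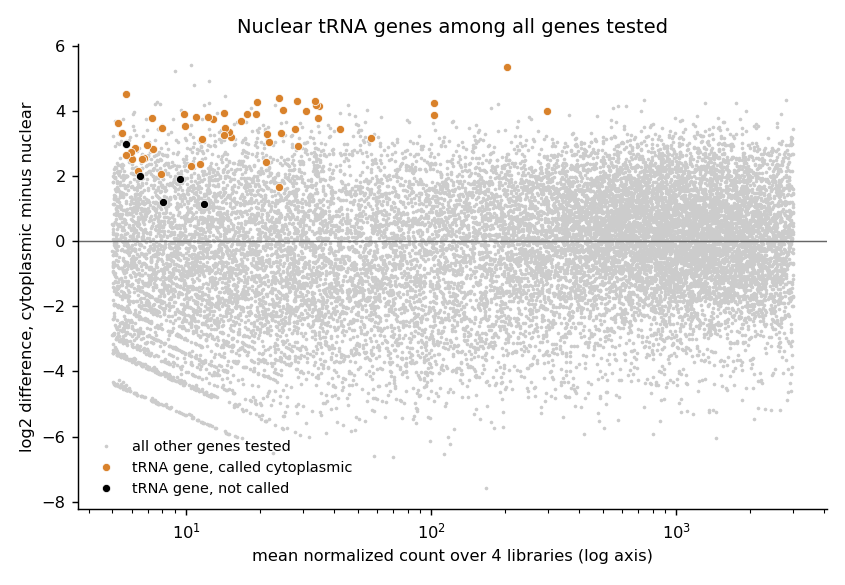
Log2 difference, cytoplasmic minus nuclear, against the mean normalized count over 4 libraries (log axis) for all 18156 genes tested. The 55 tRNA genes called cytoplasmic (orange) and the 5 not called (black) lie between 1.15 and 5.34, above the line at 0, while the median of all genes tested was -0.13.

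Large differences were spread over several amino acids. TRI-AAT5-1, an isoleucine gene, had 0 counts in both nuclear libraries and 7 and 11 in the cytoplasmic ones. Against a floor of 3 counts over both nuclear libraries it was at least 9.44-fold higher in the cytoplasmic fraction. Its fitted difference depends on the added 0.5 and is no bound, and with this gene at its bound the median over the 60 genes was 3.32. Without cytoplasmic library B its adjusted p was 0.017.

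In the asparagine and glycine genes of this group the nuclear counts were in single digits. TRN-GTT3-1 had 4 and 1 nuclear and 30 and 43 cytoplasmic counts, a log2 difference of 4.39 (SE 0.57). TRG-TCC2-6 had 2 and 4 nuclear and 46 and 41 cytoplasmic counts, a log2 difference of 4.30 (SE 0.47). These 2 genes did not overlap between the fractions, like most genes tested. Neither did TRG-TCC1-1, with 3 in both nuclear libraries and 32 and 43 in the cytoplasmic ones. TRK-CTT2-4 had 1 and 3 nuclear and 39 and 22 cytoplasmic counts, and its adjusted p was 0.0105 without nuclear library A. The lysine gene TRK-CTT2-2 had a log2 difference of 4.25 (SE 0.33), and the valine gene TRV-TAC3-1 one of 4.18 (SE 0.54). TRL-TAA4-1, with the most counts, was at 4.0 (SE 0.25, adjusted p = 8.03e-08 with limma). TRR-CCT3-1 was at 3.15 (SE 0.36), with an adjusted p of 0.0144 without nuclear library A and of 0.0177 without nuclear library B.

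**Figure D3:**
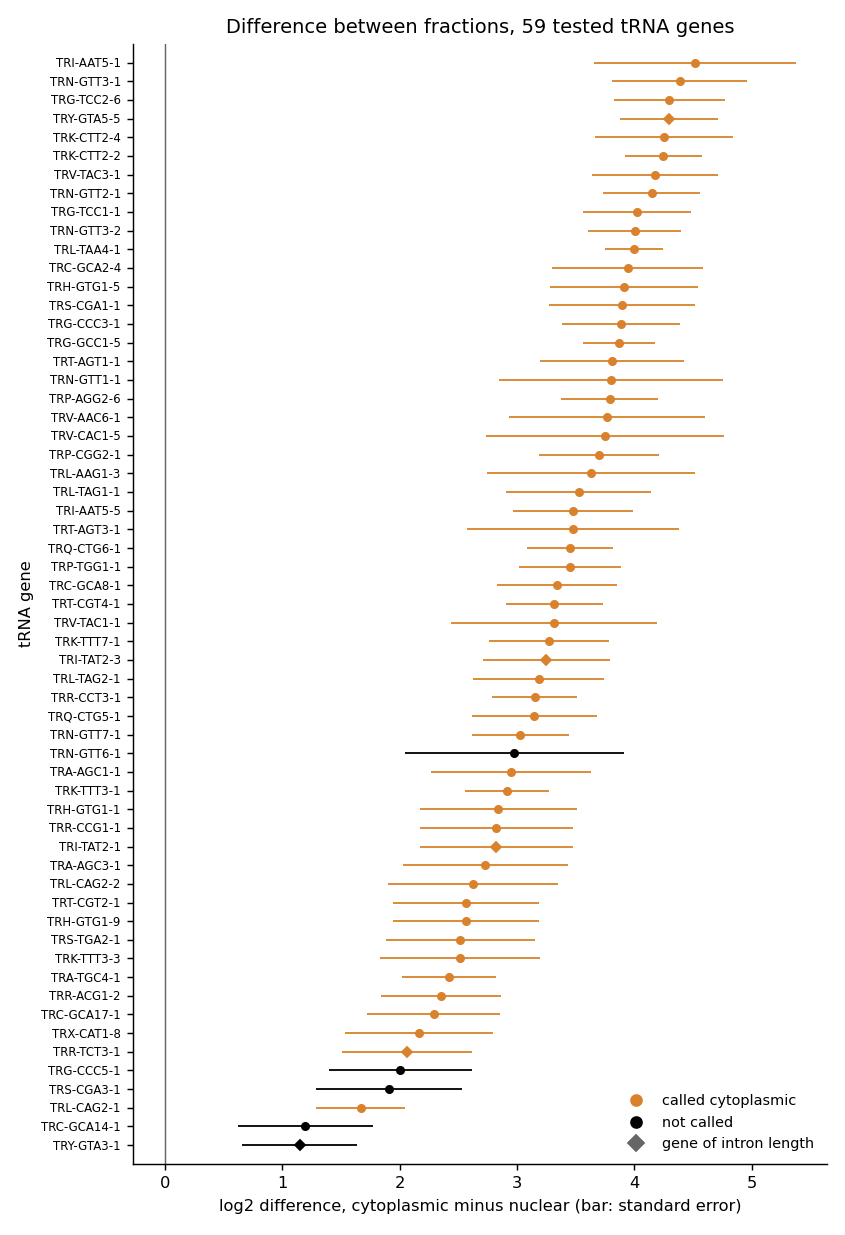
Log2 difference, cytoplasmic minus nuclear, with its standard error (bars) for 59 of the 60 tested tRNA genes, ordered by size. Orange genes were called cytoplasmic, black genes were not, and diamonds mark genes long enough to hold an intron. The lowest value is 1.15 for TRY-GTA3-1, and all 59 lie above 0. Of the 60 tested genes, 50 had to be higher in the cytoplasmic fraction to reach the minimum mean.

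Of the 60 genes, 5 did not pass the threshold. They are named here after their values were seen, as is TRL-CAG2-1. TRY-GTA3-1, a tyrosine gene, had 13 and 6 counts in the nuclear and 12 and 14 in the cytoplasmic libraries, a log2 difference of 1.15 (SE 0.49, adjusted p = 0.0509 with limma). TRC-GCA14-1, a cysteine gene, had 8 and 4 nuclear and 7 and 11 cytoplasmic counts, a log2 difference of 1.20 (SE 0.57). In both genes the raw counts overlapped between the fractions, and the normalized counts did not. TRS-CGA3-1 (serine) had 3 and 6 nuclear and 8 and 16 cytoplasmic counts, a log2 difference of 1.91 (SE 0.62), and passed the threshold without cytoplasmic library A, with an adjusted p of 0.00216. TRG-CCC5-1 (glycine) had 4 and 2 nuclear and 9 and 8 cytoplasmic counts, a log2 difference of 2.01 (SE 0.61). TRN-GTT6-1 (asparagine) had 4 and 0 nuclear and 9 and 7 cytoplasmic counts, a log2 difference of 2.98 (SE 0.93), and passed without nuclear library A, with an adjusted p of 0.00636. The smallest difference that was called belonged to the leucine gene TRL-CAG2-1, with 12 and 16 nuclear and 26 and 32 cytoplasmic counts and a log2 difference of 1.67 (SE 0.38). Its adjusted p was 0.0636 without nuclear library A, 0.0305 without nuclear library B and 0.0302 with each library scaled to its total.

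Summed by amino acid, the counts were higher in the cytoplasmic fraction in 20 of 21 classes, with the initiator methionine tRNA counted apart from the elongator. In these 20 classes both cytoplasmic sums lay above both nuclear sums, an order that 42.2% of all single genes tested had. Tryptophan, the remaining class, had 0 counts in 3 libraries and 2 in cytoplasmic library B. Leucine genes had 67 and 81 nuclear and 508 and 635 cytoplasmic counts. Glycine genes had 31 and 34 nuclear and 248 and 316 cytoplasmic counts. The log2 ratio of the normalized sums was 3.61 for leucine and 3.78 for glycine. Neither of these ratios was the highest among the 20 classes. The lowest ratios were 1.63 for phenylalanine and 1.68 for aspartate, classes with 47 and 36 counts in all libraries together. Both high sums rested on single genes, since TRL-TAA4-1 held 75.7% of the leucine counts and TRG-GCC1-5 53.3% of the glycine counts.

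**Figure D4:**
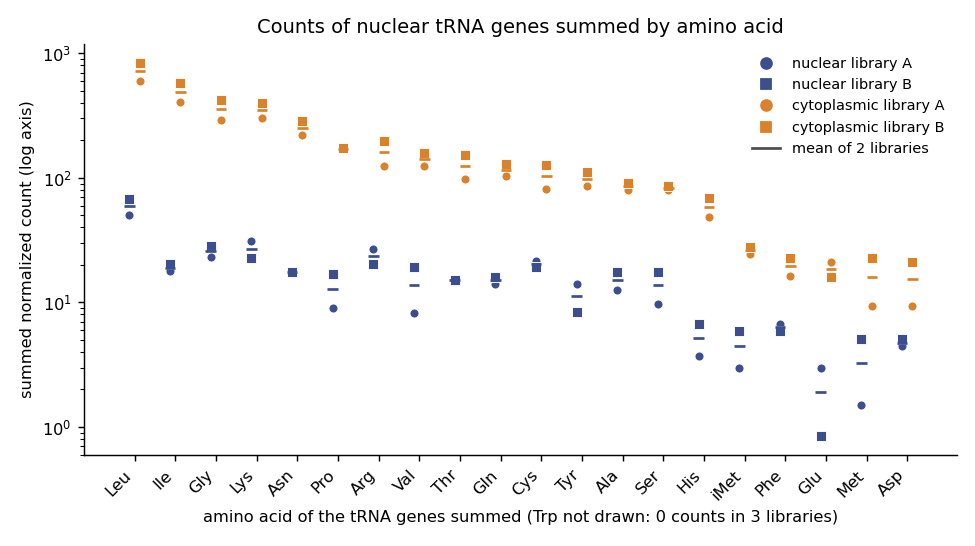
Normalized counts of nuclear tRNA genes summed by amino acid (log axis), 1 point per library with the mean of 2 libraries as a bar, ordered by the cytoplasmic sum. In all 20 classes drawn both cytoplasmic points lie above both nuclear points, an order that 42.2% of all single genes tested had. The leucine sums averaged 59.0 for the nuclear and 719 for the cytoplasmic libraries.

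Tested genes came from 16 of the 21 classes, and 0 genes of aspartate, glutamate, elongator methionine, phenylalanine and tryptophan reached the minimum. Among classes with at least 5 tested genes, the median log2 difference was 3.90 over 6 asparagine genes, 3.89 over 5 glycine genes, 3.48 over 5 isoleucine genes, 3.36 over 6 leucine genes and 3.27 over 5 lysine genes. The range within leucine was from 1.67 to 4.0, a wider range than that of these medians. With no minimum mean the median moved by more than its standard error in 12 of the 16 classes, to 1.25 for glycine and 2.49 for leucine, and 0 changed sign. The initiator methionine gene TRX-CAT1-8 had 3 and 2 nuclear and 7 and 10 cytoplasmic counts. It was the tested gene of its class and was called cytoplasmic, with a log2 difference of 2.16 (SE 0.63).

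Genes that encode the same mature tRNA received very unequal counts. All 5 copies of TRK-CTT2 had counts, from 2 to 335 over the 4 libraries, and the top copy, TRK-CTT2-2, held 335 of 418. Of the 5 listed copies of TRG-GCC1, TRG-GCC1-5 held all 335 counts and the others were at 0. The 6 listed histidine genes TRH-GTG1 ranged from 0 to 58 counts, and 3 of them were tested, with log2 differences from 2.56 to 3.91. The 7 listed initiator genes TRX-CAT1 ranged from 0 to 22. In TRK-CTT2 the tested copies, TRK-CTT2-2 and TRK-CTT2-4, had log2 differences of 4.25 each.

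**Figure D5:**
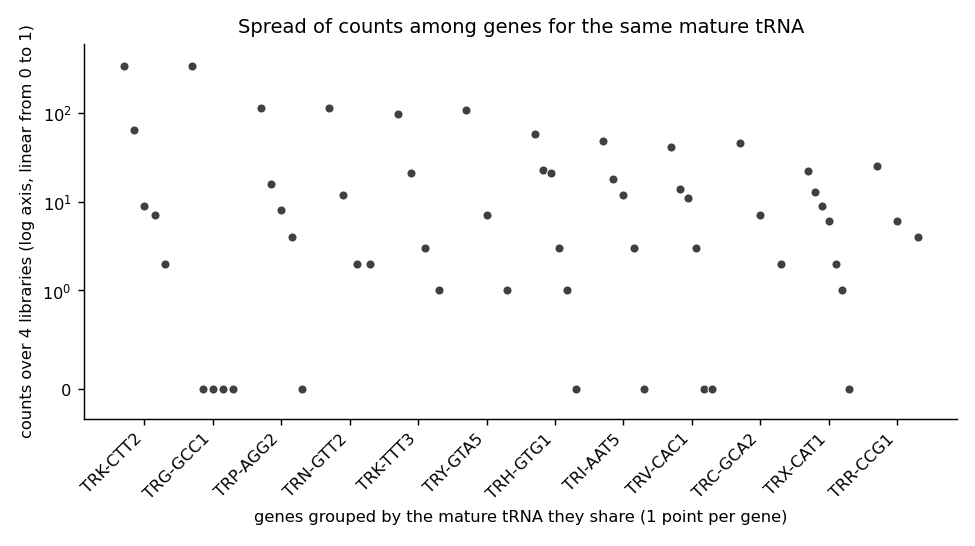
Counts over 4 libraries for each listed gene (points), grouped by the mature tRNA the genes share (log axis, linear from 0 to 1), for the 12 groups of at least 3 genes with the most counts. In TRG-GCC1 a single gene holds all 335 counts and 4 genes lie at 0.

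How the counts were divided among identical copies is uncertain. Of the 291 listed genes with a RefSeq position, 146 had at least 1 other nuclear tRNA gene with the same sequence over the whole gene. A read whose aligned part lies within such a gene fits each copy. The paper does not state how its short-read counting treated these reads. It says, for its long reads, that featureCounts normally uses a tag of the alignment to recognise reads with several mappings. Whether this shaped the unequal counts among copies was not tested. Reads were 100 nucleotides long and the tested genes with a RefSeq position 71 to 94 bases. A full-length read therefore runs past the gene, or its fragment was shorter than the read. Counts per gene do not tell mature tRNA from precursors or longer transcripts over the gene. The log2 ratio of the normalized sums was 3.30 over the genes with an identical copy and 3.51 over those with a sequence of their own, counting every gene with a RefSeq position. TRL-TAA4-1 had a sequence of its own, while TRK-CTT2-2 and TRG-GCC1-5 each belonged to a group of 5 identical genes.

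Genes that hold an intron were asked about apart, because the intron is removed before the mature tRNA leaves the nucleus. A gene was counted as holding an intron by its length, at least 85 bases, or at least 100 for leucine, and serine genes, whose variable arm is long, were left out. There were 20 such genes with a RefSeq position, of which 18 had counts. Together they held 52 nuclear and 289 cytoplasmic counts, a log2 ratio of normalized sums of 3.16, and the genes without an intron had a ratio of 3.45. Of the 5 tested intron genes, the 4 called cytoplasmic had nuclear means under 5 and so passed the minimum through the cytoplasmic fraction alone. TRY-GTA3-1, which had a nuclear mean above the minimum, was not called. The difference between these groups of genes was not tested.

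The tyrosine genes lay far apart. TRY-GTA5-5 and TRY-GTA3-1, both 89 bases long and with the same anticodon, stood at 4.29 (SE 0.42) and 1.15 (SE 0.49). TRI-TAT2-3 (isoleucine) had 2 and 4 nuclear and 24 and 18 cytoplasmic counts, a log2 difference of 3.25 (SE 0.54), and its adjusted p was 0.014 without nuclear library A. TRI-TAT2-1 had 3 and 1 nuclear and 11 and 10 cytoplasmic counts, with an adjusted p of 0.00226, of 0.0106 without nuclear library A and of 0.0231 without nuclear library B. TRR-TCT3-1 (arginine) had 4 and 3 nuclear and 11 and 10 cytoplasmic counts, a log2 difference of 2.06 (SE 0.55, adjusted p = 0.00544). It was not called without any 1 of the 4 libraries, where its adjusted p lay between 0.0111 and 0.0333, nor with each library scaled to its total, at 0.0294. The other intron genes were below the minimum. TRL-CAA2-1 had 3 and 0 nuclear and 6 and 6 cytoplasmic counts, TRY-GTA8-1 had 1 and 0 nuclear and 9 and 4 cytoplasmic counts, and TRL-CAA1-2 had 1 and 0 nuclear and 5 and 7 cytoplasmic counts. The table holds counts per gene, so reads with and without the intron cannot be told apart.

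The tRNA genes with counts lay on 19 chromosomes and most often on chromosome 6, which carries a large cluster of tRNA genes near the histone genes. Chromosome 6 held 88 of the 217 genes with a RefSeq position, and chromosome 1 held 27. On chromosome 6, 75.2% of the listed genes had counts, and 74.1% of the listed genes elsewhere. The log2 ratio of the normalized sums was 3.60 on chromosome 6 and 3.29 elsewhere.

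Some tRNA genes overlap another gene. In GENCODE 44, 12 of the 217 genes overlapped a gene on the same strand and 33 a gene on the other strand. Strand was read from the sequence, which did not settle it in every listed gene. The authors counted over another GENCODE version, with stretches shared by genes removed, so these overlaps do not describe the stretches counted. The genes overlapping a same-strand gene had 24 nuclear and 201 cytoplasmic counts, a log2 ratio of normalized sums of 3.71, and the others had a ratio of 3.42. For the other strand the ratios were 3.48 with an overlap and 3.42 without. Of the 217 genes, 205 overlapped no same-strand gene. The 4 tested genes overlapping a same-strand gene were TRG-TCC2-6, TRN-GTT1-1, TRR-ACG1-2 and TRI-AAT5-1. All 4 had a nuclear mean under 5 and so had to be higher in the cytoplasmic fraction to be tested.

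The promoter and terminator letters of the genes were compared with those of all nuclear tRNA genes in RefSeq. The B box was searched as GGTTCGA followed by any base and TCC, on both strands of the gene. It was found in 86 of the 217 genes with counts (39.6%), in 22 of the 59 tested genes (37.3%), in 24 of the 74 listed genes without counts (32.4%) and in 155 of all 423 genes (36.6%). A run of TTTT, the letters at which RNA polymerase III ends transcription, was searched on the strand of the gene in the 40 bases after it. It was found after 195 of the 217 genes with counts (89.9%), 49 of the 59 tested genes (83.1%) and 376 of all 423 genes (88.9%). TRL-TAA4-1 and TRQ-CTG6-1 were among the 10 tested genes with no TTTT in this window. Those 10 genes had a median log2 difference of 3.47 and the 49 others one of 3.25.

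The 159 genes below the minimum had few counts each and were summed. They held 119 and 114 counts in the nuclear libraries and 341 and 336 in the cytoplasmic libraries. The ratio of the normalized means was 4.58, lower than the 13.4 of the tested genes, which had been let in by their mean over both fractions. Of the 159 genes, 132 had the higher normalized mean in the cytoplasm and 27 in the nucleus. In 55 genes the counts were cytoplasmic alone and in 19 nuclear alone, and 30 genes had 1 count in all, so single genes of this kind cannot be placed. The 4 genes with the lowest mean, 0.186, had 1 count in nuclear library A, and the 80 genes just outside the rule had 0 counts in all libraries. On either side of the minimum for the test lay TRL-AAG1-3 with a mean of 5.30 and TRD-GTC2-9 with 4.77, and the latter had 1 and 5 nuclear and 3 and 8 cytoplasmic counts.

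For comparison, other short RNAs made by RNA polymerase III were taken from a list of 39 symbols. Of these, 19 had a mean above 0, counts per library were recovered for 17, and 13 were tested. Those not recovered, RN7SL1 and RMRP, had means of 772348 and 62816 normalized counts, above the mean up to which recovery was tried. The highest mean among the 13 was 736, for BCYRN1, so the most abundant RNAs of the list are left out of the comparison. In the cytoplasmic direction 8 of the 13 were called, where 32.0% of all genes tested were, and in the nuclear direction 0, at an unadjusted p under 0.05 1, SNAR-B1, with a median log2 difference of 2.15. Of the 13, 7 had a nuclear mean under 5 and passed the minimum through the cytoplasmic fraction alone, and they gave 4 of the 8 calls. With each library scaled to its total 5 were called cytoplasmic and 1 nuclear, and without nuclear library A 4 were called cytoplasmic, as without nuclear library B. BCYRN1, a small RNA that represses translation, had 84 and 90 nuclear and 1178 and 1075 cytoplasmic counts, a log2 difference of 4.34 (SE 0.14). RNY1, a Y RNA bound by the Ro protein, had 22 and 22 nuclear and 162 and 144 cytoplasmic counts, a log2 difference of 3.41 (SE 0.23). RNY3, also a Y RNA, had 0 nuclear and 16 and 13 cytoplasmic counts, at least 15.2-fold more in the cytoplasmic fraction against a floor of 3 counts. The fractions did not overlap in BCYRN1, RNY1 or RNY3, nor in most genes tested.

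The vault RNAs, parts of a large cytoplasmic particle, ranged from 2.07 to 3.04. VTRNA1-3 had 33 and 26 nuclear and 136 and 180 cytoplasmic counts, a log2 difference of 3.04 (SE 0.25). VTRNA1-1, at 2.52 (SE 0.69), was called with all libraries, but its adjusted p was 0.0703 without cytoplasmic library B, 0.0656 without nuclear library A and 0.0573 without nuclear library B, and VTRNA1-2, at 2.07 (SE 0.63), was not called (adjusted p = 0.0112 with limma). The spliceosomal RNAs of the nucleus were split. RNU6-2, RNU6-7 and RNU6-8, copies of the U6 gene, were called cytoplasmic at 2.01 (SE 0.43), 2.15 (SE 0.60) and 2.39 (SE 0.44). Without nuclear library A their adjusted p-values were 0.0286, 0.0224 and 0.0155, and without nuclear library B 0.0514, 0.0443 and 0.0194. For RNU6-7 it was 0.0243 without cytoplasmic library A and 0.0114 without cytoplasmic library B. RNU6-1, RNU6-9 and RNU6ATAC were not called, at 0.49 (SE 0.64), 0.44 (SE 0.60) and 0.58 (SE 0.34), and these 3 turned to values below 0 with each library scaled to its total. SNAR-B1, a copy of a small RNA family bound by NF90, had 218 and 272 nuclear and 126 and 96 cytoplasmic counts, and its log2 difference was -0.49 (SE 0.19, adjusted p = 0.0374 with limma). U6 and SNAR genes have many near-identical copies, so their counts are uncertain by copy.

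The genes of proteins that make and mature tRNAs were called in both directions. Reads in introns were counted as well as reads in exons, so mature mRNA and its precursors cannot be told apart. A list of 83 genes held 81 with a mean above 0. Counts were recovered for 72, the 9 others lying above the mean of 3000 up to which recovery was tried, and all 72 were tested. In the cytoplasmic direction 44 were called and in the nuclear direction 13, where 32.0% and 36.8% of all genes tested were called. The median log2 difference was 0.84, and 0.09 over the 12869 protein-coding genes tested. With each library scaled to its total, 32 were called cytoplasmic and 25 nuclear, with a median of 0.18.

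By role, 10 of the 13 tested genes of end processing were called cytoplasmic and 1 nuclear, 7 of 11 splicing genes cytoplasmic and 2 nuclear, and 11 of 17 genes of RNA polymerase III and its factors cytoplasmic and 3 nuclear. Of 31 tested modification genes, 16 were called cytoplasmic and 7 nuclear. Both export receptors of the list, XPOT and XPO5, lay above the mean for recovery and were not tested. The most cytoplasmic were POP7, a subunit of RNase P, at 3.32 (SE 0.15), GTF3A, the factor that binds the genes of the small ribosomal RNA made by RNA polymerase III, at 3.26 (SE 0.11), and MAF1, the repressor of RNA polymerase III, at 3.24 (SE 0.17). POP7 had 202 and 252 nuclear and 1485 and 1381 cytoplasmic counts. Among those called nuclear were TYW1, an enzyme of wybutosine synthesis in phenylalanine tRNA, at -2.28 (SE 0.10), and ADAT2, a subunit of the adenosine deaminase of the anticodon wobble base, at -1.45 (SE 0.10). TYW1 had 4017 and 3230 nuclear and 516 and 432 cytoplasmic counts. The fractions did not overlap in POP7 or TYW1, nor in most genes tested.

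The labels were checked with the nuclear lncRNAs NEAT1 and MALAT1. NEAT1, a lncRNA of nuclear paraspeckles, had 7527 and 5503 nuclear and 517 and 450 cytoplasmic counts, a log2 difference of -3.08 (SE 0.11, adjusted p = 2.77e-09 with limma). MALAT1 lay above the mean for recovery, so the check of the fractions rested on NEAT1. No RNA of known cytoplasmic place was included. Other nuclear RNAs did not order the fractions as NEAT1 did. RNU6-2, RNU6-7 and RNU6-8 were called cytoplasmic at 2.01, 2.15 and 2.39, and RNU6-1, RNU6-9 and RNU6ATAC were not called. The HEK293 markers VIM, NEFL and NEFM had means of 18261, 13195 and 16264 normalized counts in the authors' table. ALB and PTPRC, of liver and white blood cells, had 4 and 7 counts in the 4 libraries together.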

How the data were processed

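RNA of 2 nuclear and 2 cytoplasmic fractions of HEK293T cells was sequenced. The authors aligned reads to hg38 with STAR, counted them with featureCounts 2.0.2 over a GENCODE annotation extended with NCBI genes, from which overlapping stretches had been removed, and compared the fractions with DESeq2. The deposited table has 1 row per gene. In it, the mean normalized count is a signal the authors averaged over the 4 libraries, none of which has a column of its own, and the deposited log2 fold change and its standard error on the log2 scale are the authors' estimates. Their test statistic and p-values were not used, and none of the authors' comparison values is printed.

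Whole counts per library were recovered from the table. Each count adds 1 over 4 times the size factor of its library to a gene's mean, so that a mean is a whole-number combination of 4 such steps. Where several combinations gave the mean, the one whose refitted fold change and standard error equalled the deposited values was taken, and the sign of genes with 1 count assigned the steps to fractions. Of 32478 genes with a mean above 0, 30980 (95.4%) were recovered. Not recovered were 1482 genes with a mean above 3000, where it was not tried, and 16 others. Of the 219 tRNA genes 219 were recovered, 198 from the mean alone. The fold change was used for the 21 others, all among the 60 tested tRNA genes. On simulated means, 596 of 596 genes came back exactly. DESeq2 was not run on the simulated means, so recovery with fold changes from the authors' own fit was not tested there. Size factors were 1.34 and 1.19 (nuclear) and 0.853 and 0.755 (cytoplasmic). Library totals use the deposited mean and fold change for genes not recovered.

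log2(count / size factor + 0.5) was fitted with limma 3.58.1 (R 4.3.3; lmFit and eBayes with a variance trend) on all genes with a mean normalized count of at least 5. P-values were adjusted by Benjamini-Hochberg over all of them, with calls at 0.01. Tested on simulated counts of 18156 genes, 85% of genes changed by 2 on the log2 scale and 100% of those changed by 4 were called, as were 5 of 17956 unchanged genes. The simulation covered genes of all tested means, with 1 dispersion for all and no minimum mean applied. Its rates do not describe the tested tRNA genes, which had a median of 5.5 nuclear counts. With 2 libraries per fraction, the fit draws the variance of a gene toward that of genes with a similar mean. P-values and standard errors therefore do not measure the spread of the single gene between its libraries alone. Floors cover counting error only.

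Named tRNA genes were the 10 highest by mean, the 10 largest called differences in each direction and the 8 highest intron genes; some genes and values that the naming rules select are not reported here. Members and lists were chosen with earlier results of these data known. Coordinates came from RefSeq (GRCh38.p14), which matched 291 of 299 listed symbols. That table has no strand, which was read from the anticodon and B box. Mitochondrial tRNA genes were not analysed here. Alternatives were other pseudocounts, minimum means, scalings, variance models and a Bonferroni adjustment, and leaving out each library.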

Additional observations from a re-analysis of the deposited data

How the results depend on the processing

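The number of tRNA genes called cytoplasmic, 55 of 60, was 36 of 37 at a minimum mean of 10, 4 with the Bonferroni adjustment, 9 of 10 among genes with a nuclear mean of at least 5 (an alternative chosen after seeing the data) and between 25 and 53 when 1 library was left out. It was 56 of 219 with no minimum, where the median fell from 3.33 to 1.90 and 45 of the 55 genes kept their call. It was 57 with a pseudocount of 1, 48 with a smaller one and 41 with equal library totals. It was 54 when centred on the protein-coding median, 48 without a variance trend and 58 with voom weights. The main fit called 32.0% of all genes tested cytoplasmic, and 31.5% of those with a nuclear mean of at least 5. Shares over all genes are not given for the other settings, so their counts cannot be set against a background. In the nuclear direction 0 tRNA genes were called in every setting, where the main fit called 36.8% of all genes tested, and 0 of the 60 genes had a negative difference. This sign is no measure of stability for the 50 of the 60 genes with a nuclear mean under 5. They had to be higher in the cytoplasmic fraction to reach the minimum. Of the 159 genes below the minimum, 27 had the higher normalized mean in the nucleus. The median lay between 3.10 and 3.56 when 1 library was left out. The log2 ratio of the summed counts was 3.44, and 2.77 with equal library totals, which alone among the alternatives moved it beyond the spread between libraries; with 1 library left out it was 3.20 to 3.64.

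Of 13 other RNA polymerase III genes, 8 were called cytoplasmic, 5 of 7 at a minimum mean of 10, 5 with equal library totals, 3 with Bonferroni and 4 to 7 with 1 library left out. With equal totals 1 was called nuclear and the median was 1.56. There RNU6ATAC, RNU6-1 and RNU6-9 turned to -0.07, -0.11 and -0.17, and with 1 library left out RNU6-9 ranged from -0.017 to 0.896, the lowest without cytoplasmic library B. Of 72 tRNA pathway genes, 44 were called cytoplasmic and 13 nuclear, with Bonferroni 23 and 4. With equal totals 25 were nuclear and the median was 0.18, and with 1 library left out 8 to 13 were nuclear. These settings differ in the genes tested, the scale between the fractions, the threshold or the number of libraries. Equal totals lower the cytoplasmic scale by construction. What set the other changes was not tested. No paired analysis was possible because the table ties no value to a replicate number.

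Depth limits the single genes most. Over the 60 tested genes the median was 5.5 counts in both nuclear libraries together and 39.5 in both cytoplasmic ones, and 6 of the 19 tested tRNA genes that the naming rule selects changed call when some library was left out.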
